A study of Mus musculus with 19 samples.

Results

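The cadherin superfamily, comprising the classical cadherins, the protocadherins, the giant Fat and Dachsous cadherins and the Celsr cadherins, was examined in mouse medulloblastoma allografts. Members were all probe sets with a single gene symbol beginning with Cdh and a digit or with Pcdh, or being Fat1 to Fat4, Celsr1 to Celsr3, Dchs1 or Dchs2. This gave 111 probe sets for 64 genes, among 34945 probe sets with 1 symbol and 45037 in all. A further 6 probe sets carried several protocadherin symbols and were not members. Of the 64 genes, 46 genes (71 probe sets) passed the filter on low signal and 18 did not. The 18 were Cdh1, Cdh9, Cdh16, Cdh17, Cdh18, Cdh19, Cdh23, Cdh26, Pcdh1, Pcdh7, Pcdh11x and the beta protocadherins Pcdhb1, Pcdhb2, Pcdhb6, Pcdhb8, Pcdhb13, Pcdhb14 and Pcdhb18.

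RNA was profiled on Affymetrix oligonucleotide arrays, 1 array per tumour, in 19 tumours. Every tumour grew from Ptch+/-p53-/- mouse medulloblastoma cells placed under the skin of nude (nu/nu) mice, so all groups carry the same genotype and an immune-deficient host. The 3 vehicle tumours are labelled sensitive; 8 tumours from mice given NVP-LDE225 at 40 mg/kg and 8 from mice given 160 mg/kg are labelled resistant, although the source name says resistant for tumours 6 and 7 of the 160 mg/kg group and treated for the others. NVP-LDE225 is an antagonist of Smoothened, the receptor-like protein that passes on the Hedgehog signal when Ptch is lost. No treated and still sensitive tumour is among the groups, so drug exposure and resistance cannot be told apart. The labels do not say that the tumours came from separate donor tumours, so the p-values rest on the variation among these arrays, part of which may be technical. The tumours are bulk tissue, in which fewer cells of a type and less RNA per cell cannot be told apart.

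Cadherins are calcium-dependent adhesion proteins whose extracellular repeats bind cadherins on neighbouring cells. Classical cadherins attach to actin through beta- and alpha-catenin, Fat and Dachsous cadherins bind each other in planar polarity and growth control, and Celsr cadherins are the seven-pass receptors of the core planar polarity pathway. Clustered protocadherins give single neurons a combinatorial surface identity, and granule neurons of the cerebellum, whose precursors are the cells of origin of Hedgehog-driven medulloblastoma, use several of these families during migration and wiring.

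When both doses together were compared with vehicle, 7 of the 46 tested genes (15.2%) passed the test, against 5.29% of all 13454 tested genes. Fat2, Pcdhb7, Pcdhb9 and Pcdhb16 were higher in treated tumours, and Fat4, Celsr1 and Pcdh18 were lower. The background was 2.84% of genes for higher and 2.45% for lower. The same 7 genes passed at 160 mg/kg (background 4.89%), and Fat2, Fat4, Celsr1 and Pcdhb9 passed at 40 mg/kg (background 2.55%); the 3 comparisons share the vehicle tumours. None of the members, and 0 of 13454 genes, differed between 160 and 40 mg/kg after adjustment by limma (background 0%), although 4 members and 997 genes (7.41%) had an unadjusted p under 0.05. For both doses against vehicle that unadjusted count was 15 of the 46 members, against 23.3% of all genes. In 6 of the 46 (Fat2, Pcdh8, Pcdh10, Pcdhb11, Pcdhb12 and Pcdhb15) every vehicle signal was under the filter percentile, so they were kept through treated tumours alone; 1 of the 7 that passed, Fat2, is among them. The median log2 change over the 46 genes was 0.06, against -0.06 over all genes. Among treated tumours the median SD of log2 signal was 0.54 for the members and 0.31 for all genes, a difference that was not tested.

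**Figure D1:**
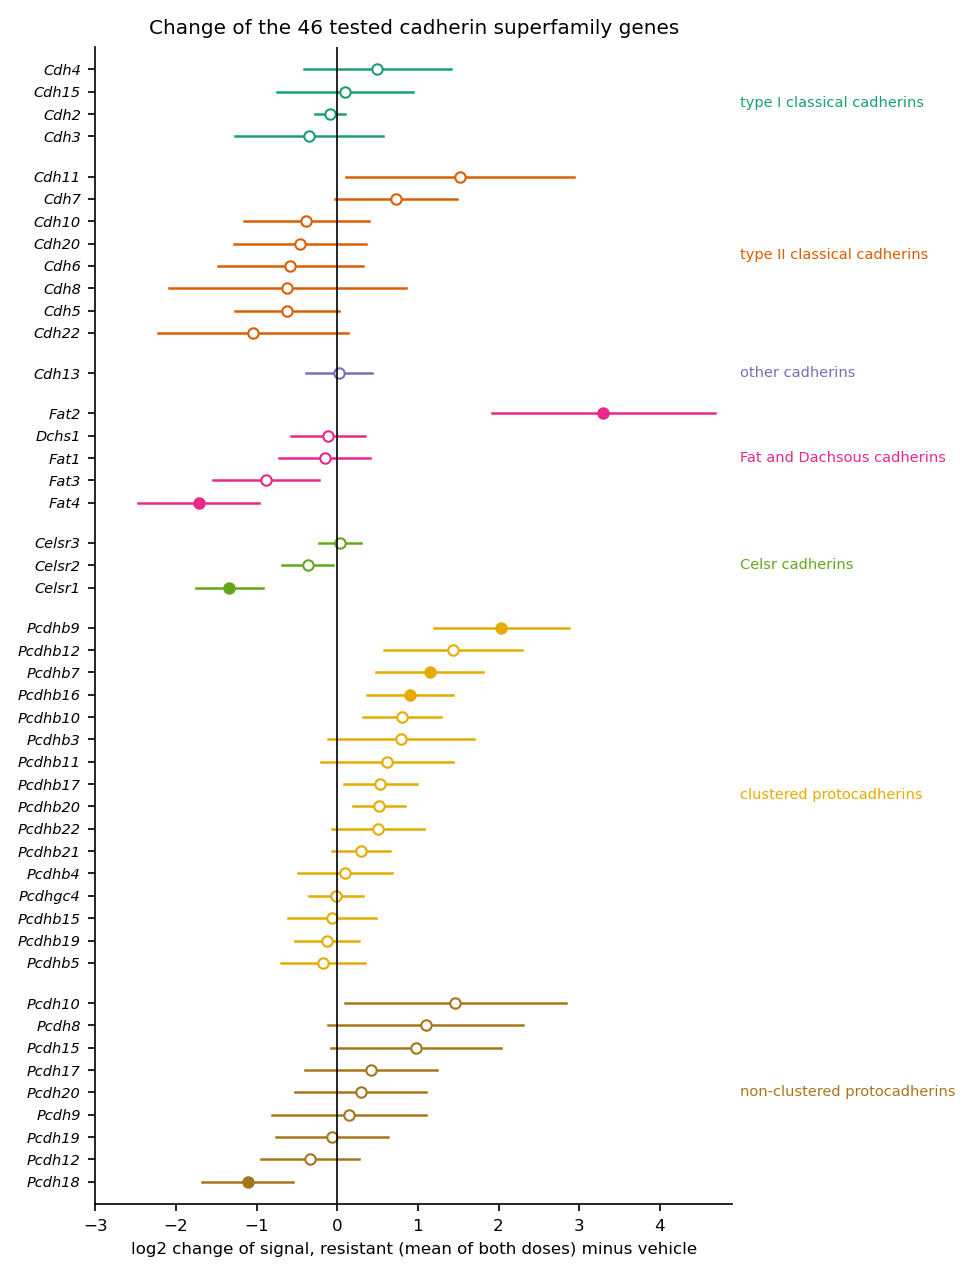
Log2 change of MAS5 signal, mean of both doses minus vehicle (x axis), for the 46 tested genes (y axis), coloured by class; lines are 95% confidence intervals from limma and filled points have an adjusted p under 0.05. The 7 filled points are 4 genes that were higher and 3 that were lower, and the position of Fat2 depends on the pseudocount because its vehicle signals are near it.

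The calls lean on the 3 vehicle tumours. Vehicle tumour 3 had the highest array median (49.7, range over arrays 32.7 to 49.7) and, with tumour 2 of the 160 mg/kg group, was least like the other arrays. Leaving out vehicle tumour 1, 2 or 3 gave 4, 2 and 1 members that passed, and of the 7 genes Celsr1 alone passed in all 3 of these fits. Without vehicle tumour 3 and tumour 2 of the 160 mg/kg group together, a choice made after seeing the data, 1 member passed, Celsr1. The share of all genes that passed in these fits is not set beside these counts. A loss of calls particular to the members therefore cannot be told from a loss over all genes.

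Among the Fat and Dachsous cadherins, all 5 measured genes were tested, 1 rose and 1 fell (background 2.84% and 2.45%). Fat2, a giant cadherin of cerebellar granule cell parallel fibres, gave signals of 10.3, 5.0 and 2.7 in the vehicle tumours. In the 40 mg/kg tumours it ranged from 16.6 to 264.6 with a median of 71.0, and in the 160 mg/kg tumours from 12.9 to 299.5 with a median of 74.2. All 16 treated tumours lay above all 3 vehicle tumours, a pattern that 1.99% of all genes showed. All 3 vehicle signals lay under the 40th percentile of their array (23.7, 19.8 and 33.3), so Fat2 passed the filter through the treated tumours alone. The fitted log2 change was 3.30 ± 0.66 (SE, adjusted p = 0.0081), but its size depends on the pseudocount (3.59 with 1 and 2.14 with 16) and it is read neither as a fold nor as a rank. Without vehicle tumour 3 the adjusted p was 0.0888. The treated tumours were themselves far apart, with tumour 4 at 40 mg/kg and tumour 3 at 160 mg/kg the lowest of their groups.

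Fat4, which pairs with Dachsous in planar polarity and growth control, moved the other way. Its vehicle signals were 38.2, 71.1 and 114.0. At 40 mg/kg it ranged from 13.9 to 45.8 (median 17.1) and at 160 mg/kg from 10.3 to 39.1 (median 15.5). The groups overlapped only at vehicle tumour 1, and 14 of the 16 treated tumours lay under the lowest of them. The fitted change of Fat4 was 3.30-fold lower (log2 change -1.72 ± 0.36 SE, adjusted p = 0.0101). Both treated medians lay under the 40th percentiles of the treated arrays (19.7 to 24.8), so the size of the fold is uncertain. The 3 vehicle signals were above theirs, which was enough to pass the filter. For both doses the adjusted p was 0.0578 without vehicle tumour 2 and 0.139 without vehicle tumour 3. The replicate block removed the call at each single dose, and the mean of its probe sets that at 40 mg/kg. Its other probe set changed by -1.20 on the log2 scale with an adjusted p of 0.129. Fat3 lay under its lowest vehicle value in 13 of the 16 treated tumours, with a log2 change of -0.88 and an adjusted p of 0.109. In any single treated tumour 31.7% to 39.8% of all genes lay under all vehicle tumours. How many genes did so in most of the 16 was not counted. Fat1 (-0.16, adjusted p = 0.771) and Dchs1, the ligand-like partner of Fat4 (-0.12, adjusted p = 0.788), did not pass.

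Of the genes that passed, Fat2, which rose, and Fat4 and Pcdh18, which fell, are shown here, each with the 250 bases before its annotated RefSeq start (GRCm38.p6). Capitals mark CG pairs, the sites of most DNA methylation in mammals.
Fat2, chr11:55312258-55312507, minus strand: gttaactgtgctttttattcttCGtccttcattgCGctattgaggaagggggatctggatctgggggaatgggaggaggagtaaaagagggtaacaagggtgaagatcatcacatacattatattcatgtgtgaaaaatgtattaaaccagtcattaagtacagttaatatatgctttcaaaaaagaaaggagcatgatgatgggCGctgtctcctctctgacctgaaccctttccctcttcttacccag
Fat4, chr3:38886690-38886939, plus strand: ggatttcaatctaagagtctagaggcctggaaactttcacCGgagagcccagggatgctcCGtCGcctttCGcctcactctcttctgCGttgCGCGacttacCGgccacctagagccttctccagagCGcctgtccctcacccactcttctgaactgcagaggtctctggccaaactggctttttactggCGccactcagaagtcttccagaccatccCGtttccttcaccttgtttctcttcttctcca
Pcdh18, chr3:49757317-49757566, minus strand: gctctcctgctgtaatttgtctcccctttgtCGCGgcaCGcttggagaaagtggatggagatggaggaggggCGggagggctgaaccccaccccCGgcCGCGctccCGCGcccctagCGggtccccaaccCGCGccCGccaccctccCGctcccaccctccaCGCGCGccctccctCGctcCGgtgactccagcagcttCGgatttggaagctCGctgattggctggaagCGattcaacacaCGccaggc
The Fat2 window holds 3 CG pairs and 41.6% GC, the Fat4 window 11 CG pairs and 54.8% GC, and the Pcdh18 window 23 CG pairs and 68.0% GC, against medians of 6 CG pairs and 52.4% GC over 32851 windows. The Fat2 window ends in a pyrimidine-rich stretch and cag, letters that also end introns, so whether it is a true promoter was not tested. None of the 3 windows holds GACCACCCA or its reverse complement TGGGTGGTC, a Gli binding sequence found in 0.225% of all windows and in 0 of 29 windows of 26 member genes. They also lack the E-boxes CAGCTG (13% of windows) and CAGATG or CATCTG (14.4%). Celsr1 was not in the promoter table.

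The 3 Celsr genes were all tested, 1 fell (background 2.45%) and 2 did not pass. Celsr1 signals under vehicle were 91.9, 80.0 and 115.8; they were 34.5 to 50.6 (median 42.2) at 40 mg/kg and 21.8 to 50.6 (median 32.5) at 160 mg/kg. All 16 treated tumours lay below all vehicle tumours, which 2.53% of all genes also showed. Celsr1 was 2.53-fold lower (log2 change -1.34 ± 0.20 SE, adjusted p = 0.000999). It passed in all 19 fits that left out a tumour and in all 11 other alternatives tried for this comparison. Celsr2 lay under its lowest vehicle value in 14 of the 16 (log2 change -0.37, adjusted p = 0.157), and its other probe set passed at 160 mg/kg alone (-0.68, adjusted p = 0.0400). Celsr3, needed for axon tract formation, had a log2 change of 0.04 with a 95% confidence interval of -0.22 to 0.30.

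**Figure D2:**
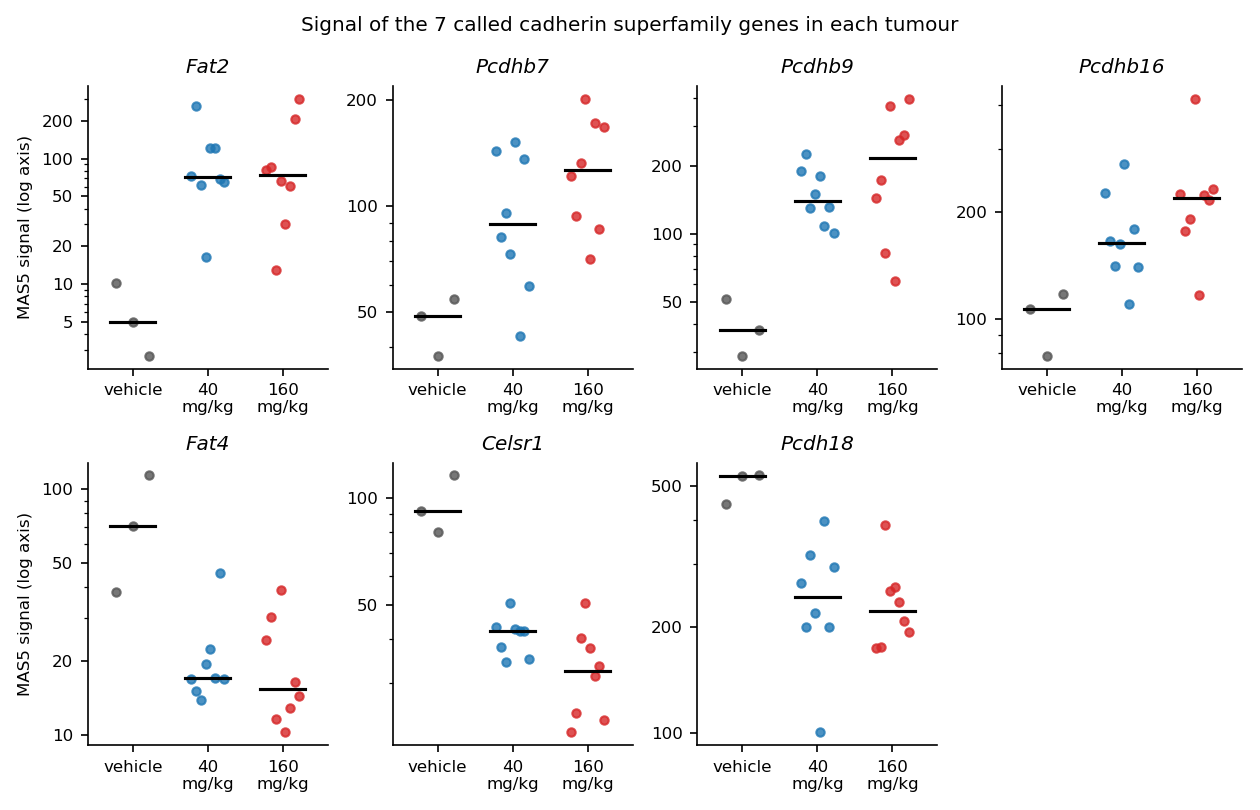
MAS5 signal (log y axis) of the 7 genes that passed the test in each tumour of the vehicle, 40 mg/kg and 160 mg/kg groups (x axis); points are tumours and bars are group medians. In Fat2, Pcdhb9, Celsr1 and Pcdh18 no treated tumour overlaps a vehicle tumour. Among the 46 tested members 2 lay wholly above and 2 wholly below vehicle, against 1.99% and 2.53% of all genes.

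Of the 23 clustered protocadherin genes, 16 were tested: 15 beta genes and Pcdhgc4. The median log2 change was 0.53, 12 of the 16 were positive, 3 rose and none fell. Over all tested genes the median was -0.06, 5712 of 13454 were positive, 2.84% rose and 2.45% fell. Pcdhb9 signals under vehicle were 51.4, 29.0 and 37.8; they were 100.7 to 227.1 (median 141) at 40 mg/kg and 61.9 to 396.6 (median 217) at 160 mg/kg. All 16 treated tumours were above all vehicle tumours, as in 1.99% of all genes. Pcdhb9 was 4.10-fold higher (log2 change 2.03 ± 0.40 SE, adjusted p = 0.0070). Its adjusted p was 0.0583 without vehicle tumour 2 and 0.0592 without vehicle tumour 3. Pcdhb7 rose 2.21-fold (log2 change 1.14 ± 0.32 SE, adjusted p = 0.0455) with 15 of 16 treated tumours above vehicle, and Pcdhb16 rose 1.87-fold (log2 change 0.91 ± 0.26 SE, adjusted p = 0.0473) with 14 of 16. Neither passed without any of the 3 vehicle tumours, and across the 19 fits that left out a tumour Pcdhb7 passed in 8 and Pcdhb16 in 5. Both also lost the call with a pseudocount of 16, with no filter and with no variance trend. The other probe sets of Pcdhb16 gave 0.52 (adjusted p = 0.383) and 0.80 (adjusted p = 0.179).

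Just above the threshold, and named after their values were seen, were Pcdhb12 (1.43, adjusted p = 0.0511), Pcdhb10 (0.81, adjusted p = 0.0530) and Pcdhb20 (0.52, adjusted p = 0.0621). In each treated tumour 5 to 12 of the 15 beta genes (33.3% to 80%) exceeded all vehicle tumours and 0 to 3 lay under all of them, whereas over all tested genes 23.5% to 32% exceeded and 31.7% to 39.8% lay under. Pcdhb11, Pcdhb12 and Pcdhb15 are among the 15 and passed the filter through treated tumours alone, which can favour values above vehicle. The 15 genes are not independent measures of a tumour, and the counts were not tested. Tumour 6 at 40 mg/kg had 5 (33.3%, against 25.7% of all genes), close to that background, and tumours 2 and 4 at 160 mg/kg had 12 each (80%, against 32% and 27.3%). Beta protocadherins are neighbouring genes of similar sequence, so a probe set may read more than its own gene, and the split of signal among them is uncertain.

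**Figure D3:**
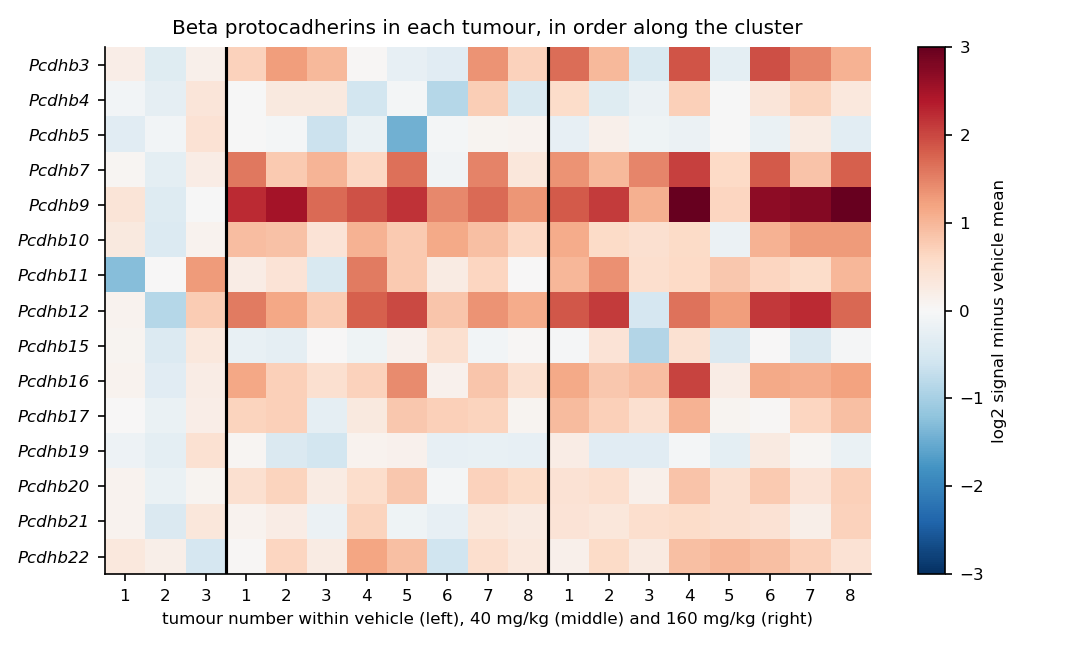
Log2 signal minus the vehicle mean (colour, -3 to 3) of 15 beta protocadherins (rows, in order along the gene cluster) in each tumour (columns); vertical lines separate vehicle, 40 mg/kg and 160 mg/kg. Pcdhb9 and Pcdhb12 show the strongest red, whereas Pcdhb5, Pcdhb15 and Pcdhb19 stay near the vehicle mean in most tumours.

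Of the 12 non-clustered protocadherins, 9 were tested and 1 fell (background 2.45%). Pcdh18 signals under vehicle were 443.3, 532.6 and 535.6; they were 100.8 to 397.2 (median 242) at 40 mg/kg and 174.8 to 387.6 (median 221) at 160 mg/kg. All 16 treated tumours were below all vehicle tumours, as in 2.53% of all genes. Pcdh18 was 2.16-fold lower (log2 change -1.11 ± 0.27 SE, adjusted p = 0.0235), but it did not pass without vehicle tumour 1, 2 or 3 (adjusted p = 0.0736, 0.0968 and 0.145). Its other probe sets changed by -0.98 (adjusted p = 0.0650) and -0.73 (adjusted p = 0.340), and the mean of its probe sets did not pass (-0.94). Pcdh9 was steady in vehicle tumours (144 ± 2.35 SD, n = 3) but ran from 70.4 to 562.9 in treated tumours, with 562.9 in tumour 2 at 40 mg/kg and 506.2 in tumour 8 at 160 mg/kg. Its log2 change was 0.15 (adjusted p = 0.882). Pcdh10 (1.46, adjusted p = 0.201) and Pcdh15 (0.97, adjusted p = 0.268) did not pass.

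None of the 4 tested type I or 8 tested type II classical cadherins passed. Cdh2, the main adhesion molecule of neural cells, lay at 1248.5, 1235.6 and 1377.5 under vehicle, at 1065.6 to 1309.3 (median 1096) at 40 mg/kg and 984.2 to 1504.4 (median 1311) at 160 mg/kg. Its log2 change was -0.09, with a 95% confidence interval of -0.28 to 0.10, and 7 of the 8 tumours at 40 mg/kg lay under its lowest vehicle value. The other kept probe set of Cdh2 went the other way (0.13, adjusted p = 0.365), with 13 of the 16 treated tumours above its highest vehicle value. Cdh1, the epithelial cadherin, did not pass the filter, with group means of 10.2, 15.7 and 12.4 in vehicle, 40 mg/kg and 160 mg/kg tumours. Cdh4 had a log2 change of 0.50 (adjusted p = 0.528) and reached 577.1 in tumour 2 at 160 mg/kg. Cdh11, a mesenchymal cadherin, spread from 31.9 to 577.3 among treated tumours, against 36.6, 33.9 and 59.3 in vehicle. It exceeded its highest vehicle value in 12 of the 16, with a log2 change of 1.53 ± 0.68 SE and an adjusted p of 0.197. The other kept probe set of Cdh11 changed by 0.59 (adjusted p = 0.527), with 6 of the 16 above its highest vehicle value. Cdh5, the endothelial cadherin, had vehicle signals of 37.4, 55.2 and 133.3 and a log2 change of -0.62 (adjusted p = 0.250). Cdh7 (0.72, adjusted p = 0.253), Cdh20 (-0.46, adjusted p = 0.509), Cdh13 (0.02, adjusted p = 0.961), Cdh3 (-0.35, adjusted p = 0.670) and Cdh15 (0.10, adjusted p = 0.916) did not pass.

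**Figure D4:**
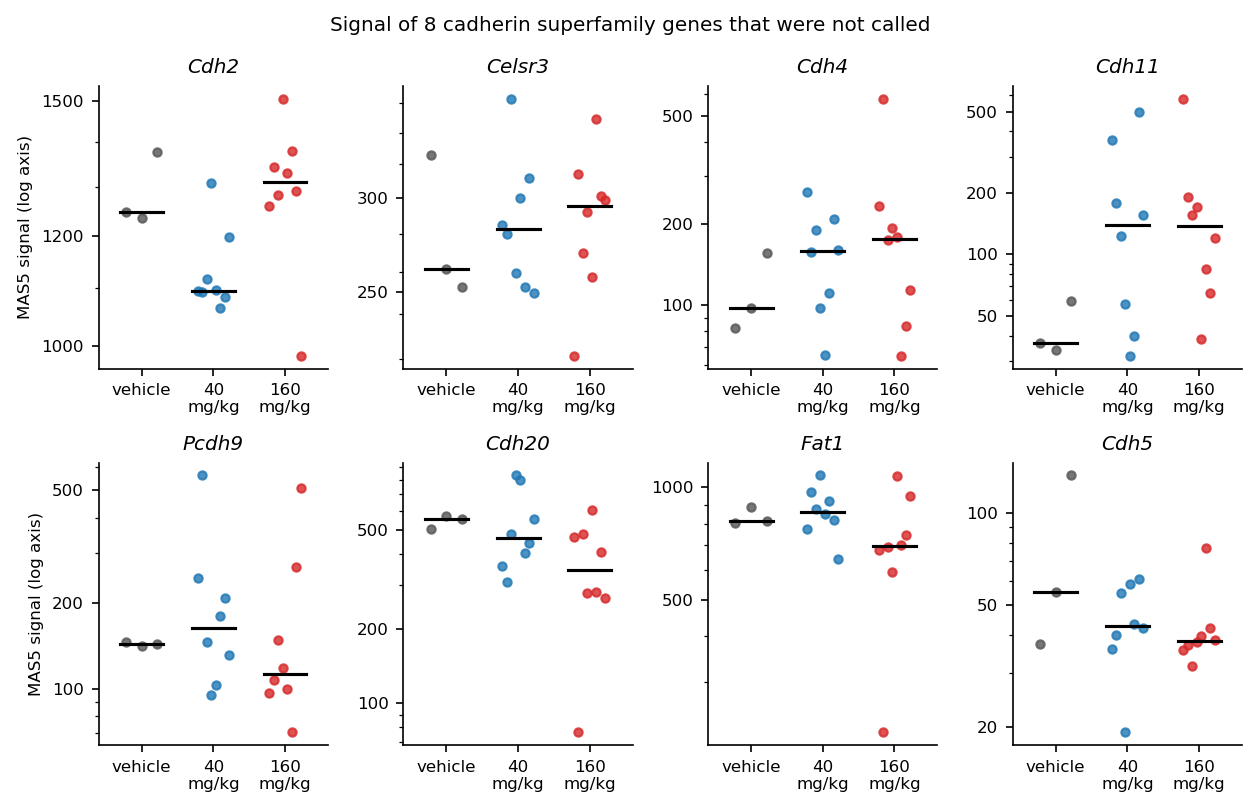
MAS5 signal (log y axis) of 8 genes that did not pass the test, in each tumour of the 3 groups (x axis); bars are medians, and the 8 were picked for the plot after their values were seen. Cdh11, Cdh4 and Pcdh9 spread widely among treated tumours, whereas Cdh2 and Celsr3 stay within a narrow range.

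Genes that work with cadherins were read from 5 lists. Over all tested genes 5.29% passed, 2.84% as higher and 2.45% as lower. With so few calls, the counts below are not read as results about the lists. Of 17 tested catenins and junction partners, 1 rose and none fell (median log2 change 0.13, against -0.06 over all genes): Ctnna2, the neuronal alpha-catenin, which was 140 ± 6.07 (SD, n = 3) under vehicle, 307 ± 89.2 (n = 8) at 40 mg/kg and 365 ± 100 (n = 8) at 160 mg/kg. Its log2 change was 1.18 ± 0.25 SE (adjusted p = 0.0109), and all 16 treated tumours were above vehicle, as in 1.99% of all genes. The adjusted p was 0.0582, 0.0621 and 0.0709 without vehicle tumour 1, 2 and 3. Ctnnb1, encoding beta-catenin, changed by 0.14 (adjusted p = 0.337). Of 23 planar polarity and Fat signalling partners, Ank2, an ankyrin, rose (0.74 ± 0.21 SE, adjusted p = 0.0465) and Tead2, a transcription factor of the Hippo pathway, fell (-0.91 ± 0.24 SE, adjusted p = 0.0348); neither passed without vehicle tumour 1, 2 or 3 (adjusted p 0.138 to 0.179 for Ank2 and 0.0947 to 0.165 for Tead2). Both also lost the call with no variance trend, Ank2 with no filter and with the mean of its probe sets, and Tead2 with array medians subtracted. Their list had a median of -0.16. None passed among 6 desmosomal genes (median -0.31), 9 cadherin repressors (-0.19) and 19 shedding enzymes (-0.14).

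Markers of the tumour lineage and of other cell types were read beside the members, and all 14 granule neuron precursor markers on the array passed the filter. Over all tested genes 2.84% passed as higher and 2.45% as lower. The sums below cover every list gene on the array, also those that did not pass the filter. These were 5 of 12 skin epithelium and 1 of 16 neuronal maturation markers, and 1 each for endothelial, astrocyte and macrophage markers. Of the 14, 5 rose (Zic1, Neurod1, Nhlh2, Cntn2 and Sox11) and none fell, with a median log2 change of 0.36; among the 9 that did not pass were Atoh1 (-0.87), Mfap4 (-1.08), Sfrp1 (-0.90) and Barhl1 (-0.59). Their summed signal, in which the brightest genes weigh most, was 12372 to 14106 under vehicle, 16260 to 20562 at 40 mg/kg and 14600 to 24570 at 160 mg/kg. The markers moved in both directions, so neither the sum nor the median is read as more precursor cells. Of 15 tested neuronal maturation markers 8 rose, with sums of 5615 to 7018 under vehicle, 7843 to 15892 at 40 mg/kg and 8614 to 16542 at 160 mg/kg. Among 13 endothelial markers Flt1 fell, with sums of 756.9 to 1123.8, 644.4 to 1049.4 and 602.7 to 828.8. Muscle sums ran from 366.5 to 22413 over all tumours, fibroblast sums from 2351 to 8768 and skin epithelium sums from 163.3 to 412.8, and no member of these 3 lists passed. Of 11 tested astrocyte and radial glia markers, Fabp7 (log2 change 3.59, adjusted p = 0.0135) and Aldoc (1.93, adjusted p = 0.0489) rose and Gja1 fell (-1.40, adjusted p = 0.0283), with a list median of -0.48 and sums of 7793 to 9746 under vehicle, 5122 to 9169 at 40 mg/kg and 3856 to 8702 at 160 mg/kg. Of 11 oligodendrocyte lineage markers Cldn11 rose (2.62, adjusted p = 0.0263), with a list median of 0.30 and sums of 2325 to 2566, 2368 to 7448 and 1934 to 6309. None of 11 macrophage and microglia markers passed (median 0.18), with sums of 1072.5 to 1785.9, 820.4 to 3046.7 and 754.2 to 6399.4. No marker was at 0 on every array. The part of these cell types in the changes of Fat2, the beta protocadherins and Ctnna2 was not tested.

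Across the 16 treated tumours, 6 pairs of a member and a marker list were related, with p-values from permutation and adjusted over the 6. Cdh15, the cadherin of muscle, followed the skeletal muscle list (Pearson r = 0.621, permutation p = 0.0104, adjusted 0.0389; Spearman rho = 0.638, permutation p = 0.0084, adjusted 0.0505). Without the 2 tumours farthest from the list median r was 0.765. Within the 40 mg/kg group r was 0.516 (exact permutation p = 0.188) and within the 160 mg/kg group 0.734 (exact permutation p = 0.0317), and neither passed after adjustment. Without the 2 tumours of the 40 mg/kg group farthest from its list median (4 and 5) its r was 0.956. Without those of the 160 mg/kg group (1 and 7) r was 0.041, so the 160 mg/kg value rests on those tumours. With array medians subtracted the pooled relation did not pass (r = 0.603, adjusted permutation p = 0.0829). Pcdh9 followed the neuronal maturation list (r = 0.606, permutation p = 0.0130, adjusted 0.0389; rho = 0.479, adjusted permutation p = 0.189). Its r was 0.560 without the 2 farthest tumours, and within doses it was 0.666 and 0.660 (exact permutation p = 0.0737 and 0.0817). The 40 mg/kg value turned to -0.105 without tumours 2 and 4, on which it rests, and the 160 mg/kg value was 0.669 without tumours 5 and 8. With array medians subtracted the pooled relation did not pass (r = 0.506, adjusted permutation p = 0.138). Fat2 with the granule neuron precursor list (r = 0.396, rho = 0.297), Cdh5 with endothelial markers (r = 0.366, rho = 0.365), Cdh11 with fibroblast markers (r = 0.205, rho = 0.185) and Cdh3 with skin markers (r = -0.223, rho = -0.199) did not pass (adjusted permutation p of r = 0.248, 0.248, 0.442 and 0.442). Cdh1 was not related to the skin list because it did not pass the filter.

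**Figure D5:**
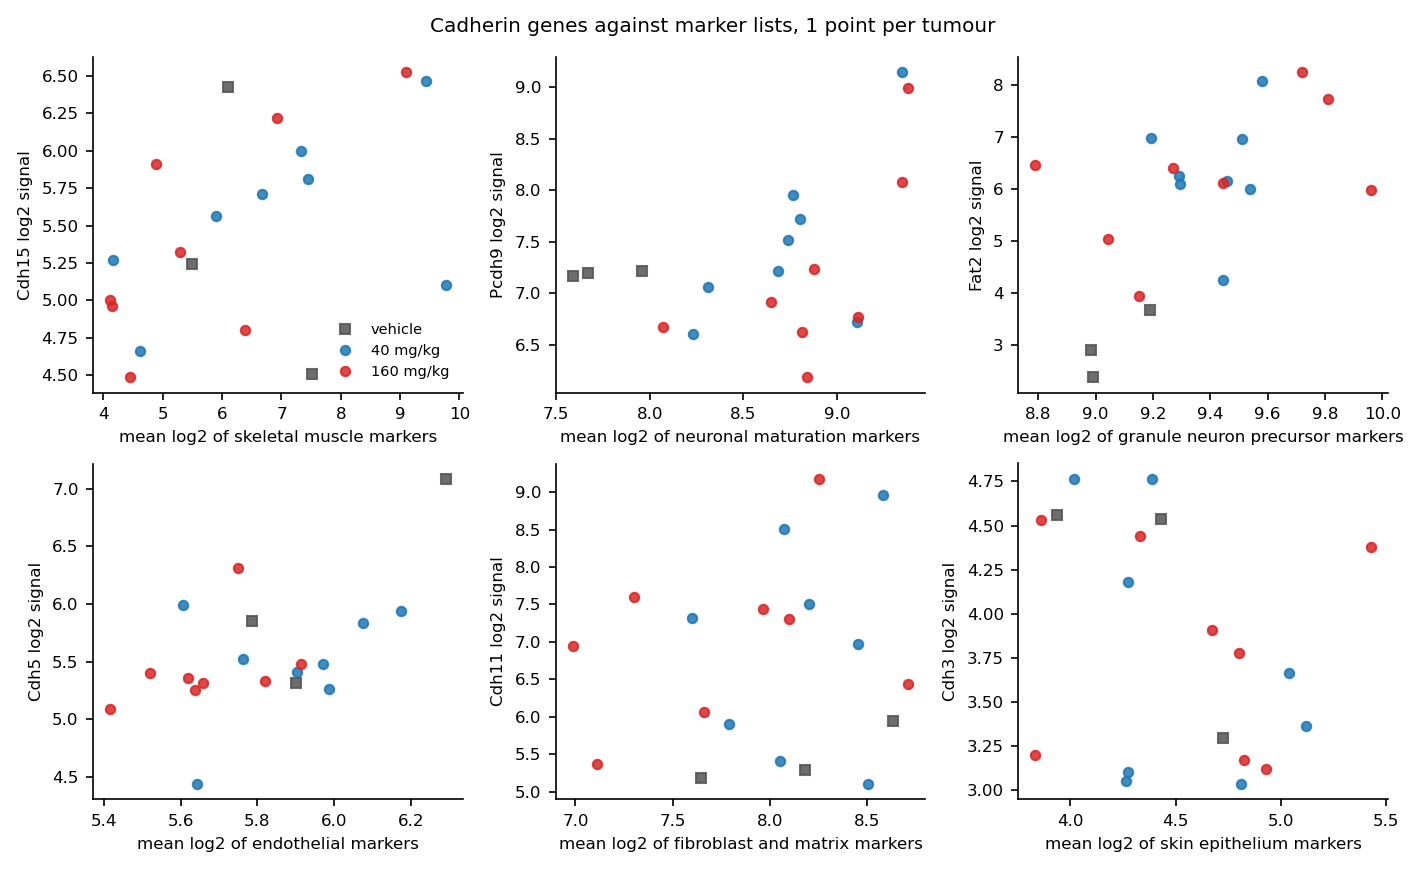
Log2 signal of 6 members (y axes) against the mean log2 signal of a marker list (x axes), 1 point per tumour; squares are vehicle, circles treated. Cdh15 rises with the muscle list and Pcdh9 with the neuronal list among treated tumours.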

How the data were processed

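Per the submitters' processing notes, the authors computed probe set signal intensities with MAS5; its version, the scaling target and a genome build are not given in the sources used here. In addition, the series text names the 430A 2.0 array, whereas the probe set list is that of the full 430 2.0 array. The deposited intensity values of 45101 probe sets were tested as log2(signal + 2.5), which understates changes of dim genes, after 64 control probe sets were left out. A probe set was kept if 3 or more arrays put it above their own 40th percentile (31143 kept). The fit was limma 3.58.1 (R 4.3.3) lmFit and eBayes with trend over 3 group means, 16 residual degrees of freedom, two-sided, with Benjamini-Hochberg adjustment over all kept probe sets; a gene passed at an adjusted p under 0.05 and is represented by its brightest kept probe set. The number of arrays limits the precision. The script was tested on simulated data. The 3 comparisons with vehicle share controls. Gene symbols came from the platform annotation, and windows from RefSeq; 26 of 64 genes matched. Batches could not be examined, since no scan date was used.

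The members and lists were chosen with earlier results of these data known. Genes named are every called member, in each class the 3 smallest p-values and 2 highest means, 15 genes always described, and every called partner; others are said to be chosen after their values were seen. Alternatives tried were quantile normalization, subtracting array medians, pseudocounts of 1 and 16, no filter and a 60th percentile filter, no trend, array weights, the compared groups alone, the mean of all kept probe sets, a replicate block and leaving out each tumour. Figures were drawn with matplotlib 3.10.9.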

Additional observations from a re-analysis of the deposited data

Results flagged for a closer look

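By Dixon's criterion, 6 of 48 groups of 8 treated tumours (24 members, 2 doses) held a tumour that stood apart (5 distinct tumours). The criterion is set to flag about 1 in 20 groups of independent, normally distributed values. The groups share the same 16 tumours, so 6 of 48 is not read as an excess over chance. Cdh2 was 984.2 in tumour 8 at 160 mg/kg, the lowest, against a next value of 1260.2. Cdh20 was 76.5 and Fat1 220.5 in tumour 2 at 160 mg/kg, both the lowest, against 266.8 and 595. Cdh5 was 19.2 in tumour 4 at 40 mg/kg, the lowest, and 77 in tumour 6 at 160 mg/kg, the highest. Fat4 was 45.8 in tumour 7 at 40 mg/kg, the highest, against 22.5. Tumour 2 at 160 mg/kg was also 1 of the 2 arrays least like the others.

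Cdh19, a cadherin of Schwann cells, did not pass the filter, but its signal was 164 in tumour 1 at 40 mg/kg, against at most 28.9 in every other tumour. It was singled out after its value had been seen, by a check on members outside the test that was added for it.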

How the results depend on the processing

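No member differed between 160 and 40 mg/kg under any setting. For the other comparisons, quantile normalization, subtracted medians, pseudocounts of 1 and 16, no filter, the 60th percentile filter, no trend, the mean of all kept probe sets and, for single doses, the compared groups alone kept the count of members that passed within 1.5 times that reported. The share of all genes is not set beside these counts, and the genes behind them could change. For both doses Pcdhb7 and Pcdhb16 were lost with a pseudocount of 16, no filter or no trend, and Pcdh18 and Pcdhb16 with the mean of probe sets. With array weights 18 members passed for both doses together, 17 at 40 mg/kg and 15 at 160 mg/kg, but so did 30.6%, 25.7% and 21.3% of all genes. Without the 2 arrays least like the others (chosen after seeing the data) 1, 0 and 1 members passed. Leaving out each tumour in turn gave 1 to 8 members for both doses, 0 to 6 at 40 mg/kg and 1 to 9 at 160 mg/kg. These counts, and those without the 2 arrays, are given without the share of all genes that passed. For both doses the compared groups alone are the fit reported. The higher share of all called genes was 53.7% as reported and 77.9% with medians subtracted, where the median over all genes moved from -0.06 to 0.01.

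Tumours with the same number were not treated as pairs, since the labels state no pairing. Over 14 same-numbered pairs the correlation of their deviations was -0.128 to 0.0904. Whether such tumours share a donor or a batch cannot be told from these values. With the replicate block 5 members passed for both doses, 1 at 40 mg/kg and 4 at 160 mg/kg, also given without the share of all genes.

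Changes near 0 turned sign. Cdh13 was -0.033 with array weights, and -0.20 to -0.000098 without vehicle tumour 2, tumour 3 at 40 mg/kg or tumours 1 or 7 at 160 mg/kg (-0.20, -0.000098, -0.013 and -0.0048), its range over all such fits being -0.20 to 0.16. Celsr3 was -0.12 with array weights, -0.041 without the 2 arrays, and -0.0061 and -0.031 without vehicle tumours 2 and 3 (range -0.031 to 0.15). Cdh15 was -0.030 with the replicate block and -0.35 without vehicle tumour 1 (range -0.35 to 0.61). Cdh2 was 0.019 as the mean of its probe sets, and Dchs1 0.024 without the 2 arrays. With medians subtracted r fell to 0.603 for Cdh15 and 0.506 for Pcdh9, neither passing; without the 2 farthest tumours r was 0.560 for Pcdh9, no longer passing, and 0.653 for Fat2, now passing. The cause was not tested. The 3 vehicle arrays and signals near background limit what dim members can show.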
